A study of Caenorhabditis elegans with 18 samples.

Results

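RNA that copurified with FBF-1 from oogenic germlines was compared with RNA recovered without antibody from animals of the same germline gender. The comparison used 6 of the 18 libraries of the study, namely 3 FBF-1 libraries and 3 controls, chosen by their labels, and 5719 of 26709 genes, those that averaged 20 counts or more over the FBF-1 libraries. RNAs found mainly in the controls were therefore left out. The measurement was iCLIP, in which RNA is cross-linked to protein in living animals, the protein is immunoprecipitated and the attached RNA fragments are sequenced.

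The FBF-1 libraries came from XX adults of strain JK5181, which carries the mutant allele fbf-1(ok91) and, on chromosome II, qSi232[3xflag::fbf-1]. The latter is a FLAG-tagged single-copy transgene, made by MosSCI and placed in a strain that lacks fbf-1. Animals were propagated at a lower temperature, moved to 25° at the first larval stage and taken as early adults, when their germlines make oocytes within a hermaphrodite body that still contains intestine, muscle, epidermis and neurons. The controls were also oogenic and raised at 25°, and the FLAG antibody was left off the beads. The strain behind the controls is not given in the sources used here. The 3 replicates of each set are described as biological replicates. FBF-1 libraries were sequenced in lane 2 and oogenic controls in lane 1, so lane and antibody cannot be told apart. Counts on fbf-1 include its transgene and do not check the label of a library. For comparison, FBF-2 libraries came from JK5182, which pairs fbf-2(q738) with the transgene qSi75[3xflag::fbf-2], and spermatogenic FBF-1 libraries from JK5140, which adds fem-3(q22 ts,gf) to the FBF-1 genotype. The proteins were tagged in different strains.

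FBF-1 and its near twin FBF-2 are PUF proteins, which bind short elements, mostly in the 3′ untranslated regions of mRNAs, and repress or destabilise those mRNAs. In the nematode germline the FBF proteins keep stem cells from entering meiosis and promote the switch from sperm to oocytes. Their known mRNA targets include regulators of meiotic entry and sex determination and structural proteins of meiotic chromosomes. Reads on an RNA in iCLIP reflect both how abundant the RNA is and how often the protein contacts it. Since whole animals were lysed, more cells of a type and more RNA per cell cannot be told apart.

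The FBF-1 libraries held 18749, 726238 and 1833483 counts on genes in replicates 1, 2 and 3. The controls held 141368, 283777 and 139129. Replicate 1 of FBF-1 was thus far shallower than the rest. A single count there equalled 53.3 RPM, the count scaled to a library of 1000000 counts on genes, and 2295 of the tested RNAs (40.1%) had a count of 0 in it. Results are given with and without it. Across the tested RNAs, which are not independent replicates, Spearman's rho was 0.966 between FBF-1 replicates 2 and 3 and 0.669 and 0.667 between those and replicate 1. It was 0.786 to 0.828 among the controls and 0.437 to 0.574 between an FBF-1 library and a control.

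The classes of RNA differed between the FBF-1 and control libraries. Ribosomal RNA, the RNA of the ribosome itself, took 37.8%, 16.9% and 13.2% of the counts with FBF-1 and 43.2%, 46% and 47.7% in the controls. Protein-coding RNA took 51.5%, 74.3% and 78.3% with FBF-1 and 42.9%, 40.7% and 39.7% in the controls. The sets did not overlap for either class, nor for tRNA or mitochondrial RNA, and replicate 1 lay nearest the controls in all 4 classes. The exact two-sided permutation test over libraries gave p = 0.1 for each, the smallest p that 3 against 3 libraries allow. The mean rRNA share was 22.7% ± 13.3 with FBF-1 and 45.6% ± 2.3 in the controls (SD, n = 3 each).

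**Figure D1:**
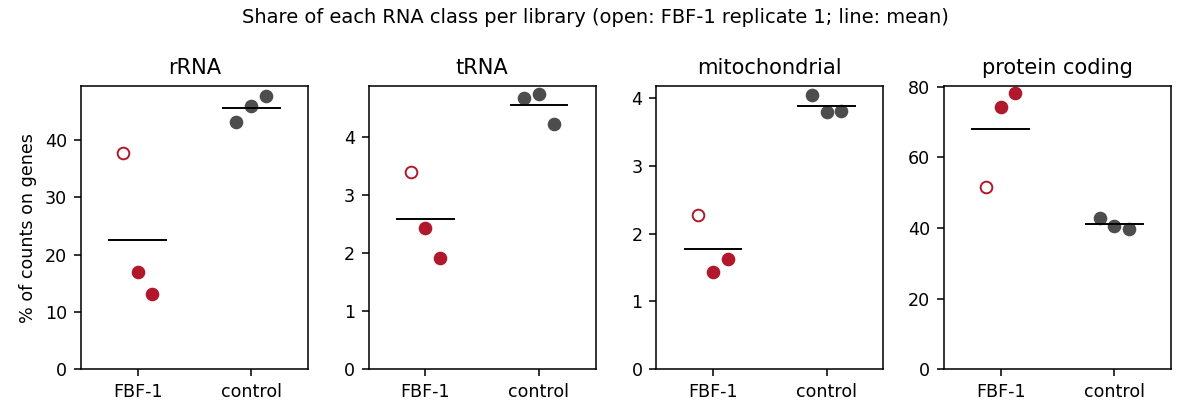
Percent of counts on genes taken by rRNA, tRNA, mitochondrial RNA and protein-coding RNA in each library, with FBF-1 in red, controls in grey, FBF-1 replicate 1 open and the mean of each set as a line. Protein-coding RNA took 51.5% to 78.3% of the FBF-1 libraries and 39.7% to 42.9% of the controls.

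Many germline mRNAs were higher in the FBF-1 libraries than in the controls, with the meiotic regulator gld-1 first of them by RPM. Of 5719 RNAs tested, 2770 (48.4%) were higher and 164 (2.87%) were lower, by edgeR's quasi-likelihood test with library-size scaling. A call needed both an adjusted p (Benjamini-Hochberg, over all RNAs tested) below 0.01 and more than a 2-fold difference. Over all RNAs tested, the log2 fold change had a median of 1.21. Without FBF-1 replicate 1, 2846 of the same RNAs (49.8%) were higher and 173 were lower, and 2766 of the higher RNAs were shared. Without FBF-1 replicate 3, the deepest library, fewer RNAs reached the count minimum, and 1813 of 3437 were higher and 138 lower. All 3 FBF-1 libraries lay above all 3 controls for 2024 RNAs (35.4%) and below them for 449 (7.85%). The non-overlapping RNAs included 1685 of those called higher and 143 of those called lower. The number of calls depended on the scaling. With TMM normalization, which sets the bulk of RNAs to no change and moved the median to -0.03, 810 RNAs (14.2%) were higher and 1221 (21.3%) were lower. All 810 were among the 2770, and all 164 lower RNAs were among the 1221. With the count minimum taken over all 6 libraries in place of the FBF-1 libraries, 2455 of 4352 RNAs were higher and 153 were lower.

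**Figure D2:**
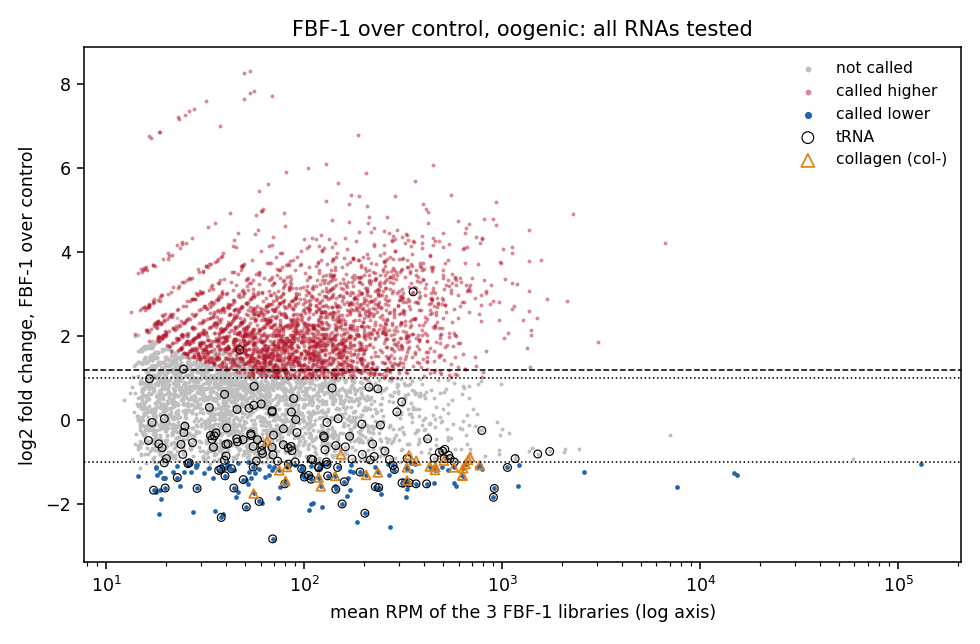
Log2 fold change of FBF-1 over control against mean FBF-1 RPM for the 5719 RNAs tested, with dotted lines at 1 and -1 and a dashed line at the median of 1.21. Red points are the 2770 RNAs called higher and blue points the 164 called lower, and tRNA genes and collagens are outlined.

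Established targets of FBF were measured first. Of 15 such RNAs, whose choice comes from the study's own list, 14 could be tested and 13 were higher with FBF-1, under library-size scaling, under TMM and without replicate 1 alike. The background for a higher call was 48.4% with library-size scaling and 14.2% with TMM. The median log2 fold change of the 14 was 3.44, against 1.21 for all RNAs tested.

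Among the regulators of meiotic entry, gld-1 encodes a repressor of translation that drives germ cells into meiosis. It had 7894, 6739 and 5325 RPM in FBF-1 replicates 1, 2 and 3 and 403, 292 and 359 in the controls. The lowest FBF-1 library was thus far above the highest control. Its log2 fold change was 4.23 (standard error, SE, 0.20, edgeR adjusted p = 1.1e-99). Even in the shallow replicate 1, gld-1 had 148 counts and took 0.789% of the library (95% Wilson interval 0.672% to 0.927%, counting error only). In the controls its share was 0.0292% to 0.0403%. Its position in WBcel235 is chromosome I, 7695681 to 7698222. gld-3, whose product acts with the poly(A) polymerase GLD-2, had 107, 288 and 340 RPM with FBF-1 and 56.6, 49.3 and 35.9 in the controls. The sets did not overlap, although replicate 1 of FBF-1 rested on 2 counts, and the log2 fold change was 2.70 (SE 0.27, edgeR adjusted p = 2.7e-22).

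The sex determination RNAs fem-3 and fog-1 promote the sperm fate and were higher as well. fem-3 had 160, 270 and 250 RPM with FBF-1 and 56.6, 21.1 and 21.6 in the controls, a log2 fold change of 3.07 (SE 0.31, edgeR adjusted p = 7.3e-22). fog-1 had 107, 132 and 149 RPM with FBF-1 but only 2 counts over the 3 controls. The ratio of its summed reads was 40.6 (95% exact counting interval 11.2 to 336), and its fitted log2 fold change rests on those 2 counts. fog-3, a sperm fate gene that the study calls sperm-specific and did not expect in oogenic germlines, had too few counts to test. It had 0, 5.51 and 7.09 RPM with FBF-1 and 7.07, 0 and 0 in the controls. The fbf RNAs themselves were higher, with 373, 353 and 317 RPM for fbf-1 against 35.4, 24.7 and 79.1 in the controls. fbf-2 had 107, 241 and 225 RPM against 7.07, 21.1 and 35.9.

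RNAs for the axis of meiotic chromosomes and for the synaptonemal complex, which holds paired homologs together, were among the targets with the largest changes. him-3, htp-1 and htp-2 encode HORMA domain proteins of the axis. htp-1 had 640, 1168 and 971 RPM with FBF-1 and 35.4, 42.3 and 43.1 in the controls, with a log2 fold change of 4.66 (SE 0.25, edgeR adjusted p = 1.8e-74). htp-2 had a log2 fold change of 4.68 and him-3 of 4.34. syp-2 and syp-3, of the central region of the complex, each had a log2 fold change of 3.46. In all 5 the FBF-1 and control libraries did not overlap.

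The kinase mpk-1, the ERK of the nematode, had 427, 825 and 743 RPM with FBF-1 and 84.9, 123 and 35.9 in the controls, a log2 fold change of 3.07. lip-1, the phosphatase that counters MPK-1, had 267, 529 and 510 RPM against 70.7, 52.9 and 115, a log2 fold change of 2.79. The cGMP-dependent protein kinase egl-4 was the exception, and the study, which knew it as a target in neurons only, did not expect it in oogenic germlines. It had 213, 428 and 394 RPM with FBF-1 and 255, 342 and 280 in the controls. Its libraries overlapped, and its log2 fold change was 0.42 (SE 0.18, edgeR adjusted p = 0.03), under 2-fold. The sign was negative under TMM.

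**Figure D3:**
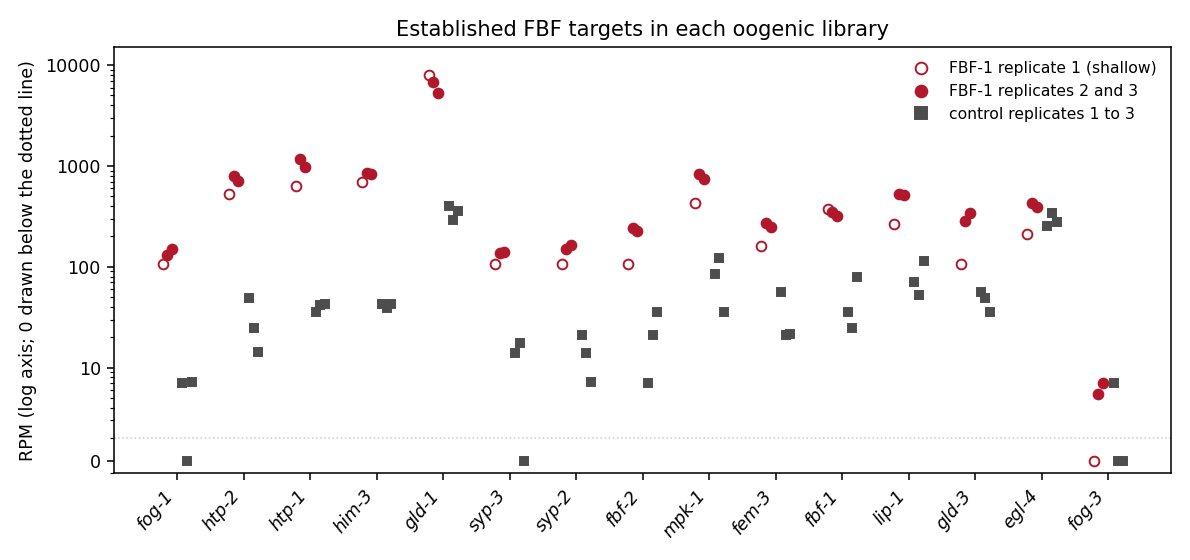
RPM of the 15 established targets in each library on a log axis, with counts of 0 drawn below the dotted line, ordered by log2 fold change with the untested fog-3 last. For 13 targets every FBF-1 library (red, replicate 1 open) lies above every control (grey), and for egl-4 and fog-3 the sets overlap.

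RNAs with the largest rise were then taken from those with at least 10 counts in the controls, at least 20 RPM in FBF-1 replicates 2 and 3, and sets that did not overlap. The largest log2 fold change among these was that of wdr-5.3, a homolog of the chromatin protein WDR5, with 800, 1037 and 957 RPM with FBF-1 and 35.4, 28.2 and 14.4 in the controls. Its log2 fold change was 5.20 (SE 0.27, edgeR adjusted p = 1.3e-77). plk-3, a polo-like kinase, had 2453, 2350 and 2050 RPM against 77.8, 84.6 and 50.3, a log2 fold change of 4.91 (SE 0.22, edgeR adjusted p = 1.3e-106). Its position in WBcel235 is chromosome IV, 7470860 to 7473209. hil-2, a linker histone gene, had 960, 789 and 682 RPM against 14.1, 38.8 and 14.4, and its log2 fold change was 4.80. The FBF-1 libraries of these genes lay close together and far from the controls. The other RNAs of this set were T24D1.3 (4.79), Y10G11A.90 (4.75), Y73B6BL.23 (4.70), the axis genes htp-2 and htp-1, raga-1 (4.58), a small GTPase of the TOR pathway, and gyg-2 (4.54), a glycogenin. All 10 were also called with TMM.

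In 17 tested RNAs all 3 controls had a count of 0, and all 17 were called higher. The count minimum was set on the FBF-1 libraries, which largely fixed that outcome, so the count of calls is no evidence here. The 5 of them with the highest mean RPM are given as lower bounds, against a floor of 3 counts over the 3 controls (5.32 RPM). Each bound is the smaller of that from the mean of all 3 FBF-1 libraries and that from replicates 2 and 3, the second chosen after the values were seen. T01C3.2 had 107, 50.9 and 48 RPM with FBF-1, where the 107 RPM rest on 2 counts, and was at least 9.31-fold higher (12.9 with replicate 1). F32B6.3 was at least 10.5-fold higher. egl-1, the BH3-only activator of programmed cell death, had 0, 88.1 and 70.4 RPM and was at least 9.94-fold higher. The noncoding RNA CD4.10 was at least 9.87-fold and Y69A2AR.32 at least 9.28-fold higher. In egl-1 and Y69A2AR.32 the shallow FBF-1 replicate also had a count of 0, so the sets touched there.

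Ranked by RPM, the 2770 were led by gld-1, with a mean of 6652 ± 1287 RPM (SD, n = 3), or 2998 RPM per kilobase of exon. It was followed by cgh-1, the DDX6 helicase of germ granules, with 3036 ± 234 RPM and 1336 RPM per kilobase, and by plk-3 with 2285 ± 210 RPM and 1114 per kilobase. cpg-1, an eggshell chondroitin proteoglycan, had 2126 ± 384 RPM, ifet-1, the eIF4E transporter, 1687 ± 233, and the Argonaute wago-4 1565 ± 223. Next came the small heat shock protein gene sip-1 with 1500 ± 321 RPM, larp-1, a La-related protein gene, with 1393 ± 124, car-1, an mRNP component, with 1389 ± 114, and cbd-1, an eggshell chitin-binding protein gene, with 1377 ± 225 (SD, n = 3 each). Per kilobase of exon sip-1 reached 2343 RPM and length changed the order, with gld-1 at rank 3 and sip-1 at rank 5 of the 2770. In all 10 RNAs the FBF-1 libraries lay above the controls. The change was large for wago-4 (log2 fold change 3.82) and moderate for cgh-1 (1.86), larp-1 (2.16), car-1 (2.03) and cbd-1 (1.26). Under TMM those last 4 were no longer called, with log2 fold changes of 0.65, 0.94, 0.81 and 0.03.

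Calls were more frequent among abundant RNAs. When the RNAs were split into 5 bins by mean count, the lowest bin ran from 20 to 32 counts per FBF-1 library, and 17.9% of its RNAs were called higher. In the highest bin, from 165 counts upwards, 67.7% were. The medians of the log2 fold change in these bins were 0.80 and 1.79. The counts that set the bins also enter the fold change, so this is a description only.

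Gene lists were drawn from known germline functions, and each count below is to be read against the background of 48.4% higher and 2.87% lower with library-size scaling, or 14.2% higher and 21.3% lower with TMM. In the synaptonemal complex and chromosome axis list, all 16 members tested were higher, with log2 fold changes from 2.93 to 4.68 and a median of 3.46, and all 16 were higher with TMM too. syp-1 had 53.3, 229 and 247 RPM with FBF-1 and 0, 28.2 and 7.19 in the controls, a log2 fold change of 3.87. The smallest changes in this list were those of him-1, a cohesin subunit, with 2.93, and lab-1, which protects cohesion, with 3.00. All 16 lay above all controls in replicates 2 and 3, as did 3820 of the 5719 RNAs tested. In all 3 FBF-1 libraries 14 did so, against 2024 (35.4%) of all RNAs tested.

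In the list of homolog pairing and recombination genes, 25 of 28 members were higher and none was lower, and 11 were higher with TMM. The median log2 fold change was 2.65. dsb-1, needed to form meiotic double-strand breaks, had 480, 391 and 387 RPM with FBF-1 and 14.1, 14.1 and 7.19 in the controls, a log2 fold change of 4.96 (SE 0.35, edgeR adjusted p = 3.5e-42). him-5, needed for breaks on the X chromosome, had 160, 231 and 223 RPM but 2 counts over the controls, and the ratio of its summed reads was 63.4 (95% exact counting interval 17.5 to 524). zim-2, a pairing centre protein gene, had a log2 fold change of 4.03 on 4 control counts. The recombinase rad-51 had 3.84 on 11.

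In the list of meiotic entry and GLP-1/Notch genes, 21 of 22 members were higher, with a median log2 fold change of 2.74, and 13 were higher with TMM. prom-1, an F-box protein gene that promotes meiotic progression, had 267, 475 and 485 RPM with FBF-1 and 28.3, 7.05 and 14.4 in the controls. Its log2 fold change was 5.03 (SE 0.34, edgeR adjusted p = 2.6e-48). sygl-1, a target of Notch signalling in stem cells, had 53.3, 251 and 219 RPM against 28.3, 24.7 and 7.19, a log2 fold change of 3.41. The ataxin gene atx-2 was the member not called, with a log2 fold change of 0.97. It passed 2-fold without control replicate 1 (1.01), without control replicate 2, in thinned libraries (1.27) and against the spermatogenic controls (1.26), and was negative under TMM. Among the 19 sex determination genes tested, 15 were higher, 8 of them with TMM, and the median was 1.88.

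Lists of mRNA regulators differed in how far their share of higher RNAs stood above the background. Of 14 PUF, CPEB and DAZ family members tested, 13 were higher, 11 of them with TMM, with a median log2 fold change of 3.09. The CPEB gene cpb-3 had 853, 1135 and 1046 RPM with FBF-1 and 106, 45.8 and 50.3 in the controls, a log2 fold change of 4.09. Another CPEB gene, cpb-1, had 3.97 and the PUF gene puf-6 had 3.98. puf-9, on the X chromosome, was not called, with 53.3, 120 and 140 RPM against 77.8, 106 and 108, so that its sets overlapped, and its log2 fold change changed sign under TMM. Of 25 P granule and germ granule genes, 19 were higher (9 higher and 2 lower with TMM). meg-1 had a log2 fold change of 3.34, the piRNA Argonaute prg-1 of 3.09, the helicase drh-3 of 3.01 and the Vasa helicase glh-2 of 2.93. Of 21 deadenylases and translation factors, 13 (61.9%) were higher, not far above the background of 48.4%. With TMM 5 (23.8%) were higher and 4 (19%) lower, against 14.2% and 21.3%. The 13 included panl-2, of the PAN deadenylase, with a log2 fold change of 3.21, and ntl-9, of the CCR4-NOT complex, with 2.92. The poly(A) polymerase gld-2 had 2.84 and the cap-binding gene ife-1 had 2.75. Against the spermatogenic controls ife-1 was not called, with 0.75. The poly(A)-binding protein gene pab-2, on the X chromosome, had 213, 330 and 369 RPM with FBF-1 and 651, 747 and 647 in the controls. Its log2 fold change of -0.99 was just under 2-fold, although its sets did not overlap. pab-2 was called lower with TMM (-2.23), without control replicate 1 or 3 (-1.02 each), without FBF-1 replicate 3, with the replicate block (-1.05), under DESeq2 with its own size factors (-2.19) or library-size scaling (-1.03), without rRNA, tRNA and mitochondrial genes (-1.80) and against the spermatogenic controls (-1.76).

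In the cell cycle list of cyclins, CDKs, mitotic kinases and replication factors, 35 of 43 members were higher (21 with TMM), with a median log2 fold change of 2.23. Beside plk-3 they included the main mitotic kinase cdk-1, with 373, 629 and 503 RPM with FBF-1 and 28.3, 45.8 and 64.7 in the controls, a log2 fold change of 3.58. The replication licensing gene cdc-6 had 3.39. cdk-2 had 3 counts over the controls, and the ratio of its summed reads was 13.9 (95% exact counting interval 4.67 to 67.8). The replicative helicase gene mcm-2 was not called, with 0, 124 and 119 RPM against 120, 88.1 and 57.5, and its log2 fold change also changed sign under TMM. Against the spermatogenic controls mcm-2 was called higher, with a log2 fold change of 2.03 (edgeR adjusted p = 9.4e-05). Of 11 genes of the RAS to MPK-1 pathway, 7 were higher (5 with TMM), led by the scaffold ksr-2 with a log2 fold change of 3.15, mpk-1, puf-8 with 2.81 and lip-1.

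RNAs that mark oocytes and are used by the embryo were mostly higher. Of 24 oocyte and maternal RNA regulators, 20 were higher (9 with TMM), and the median log2 fold change was 1.75. pie-1, which represses transcription in germline blastomeres, had 373, 425 and 382 RPM with FBF-1 and 14.1, 24.7 and 28.8 in the controls, a log2 fold change of 4.11. The PUF genes puf-11 and puf-5 had 3.12 and 3.07, and oma-1, a regulator of oocyte maturation, had 2.98. Of 14 eggshell and yolk receptor genes, 10 were higher (8 higher and 3 lower with TMM). The yolk receptor gene rme-2 was not called, with a log2 fold change of 0.76. egg-3 had a log2 fold change of 3.46, egg-6 of 3.27, egg-2 of 3.14 and egg-5 of 2.98. The permeability barrier genes perm-4 and perm-2 had -0.39 and -0.56, with FBF-1 libraries that all lay below the controls. Both were called lower with TMM (-1.63 and -1.80), under DESeq2 (-1.56 and -1.73), without rRNA, tRNA and mitochondrial genes (-1.20 and -1.37) and against the spermatogenic controls (-1.13 and -1.06). Among 22 germline chromatin regulators 20 were higher (4 with TMM), among them the HP1 gene hpl-2 (3.43), lin-61 (2.80) and xnd-1 (2.52). Among 39 nuclear pore and transport genes 33 were higher (10 with TMM), among them npp-20 (3.15), npp-16 (3.13), npp-4 (3.09) and ran-3 (2.74). The first 3 of these nuclear pore genes had 0 counts in FBF-1 replicate 1, so their sets touched or overlapped.

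Housekeeping gene families stood below the median of all RNAs tested or near it. Of 78 cytoplasmic ribosomal protein genes, 7 were higher and none was lower, and the median log2 fold change was 0.25. rps-29 had a log2 fold change of 2.19 and rps-27 of 1.87. With TMM no ribosomal protein gene was higher, these 2 included, and 39 were lower. Of 31 histone genes 3 were higher, with a median of 0.28, led by the histone H3 variant genes his-72 (3.37) and his-74 (1.93). With TMM 1 histone gene was higher and 14 were lower, and his-74 was not called, with 0.68 (edgeR adjusted p = 0.086). Of 31 proteasome genes 20 were higher, with a median of 1.27, close to the median of all RNAs, and with TMM only rpn-6.1 was higher and 2 were lower. With library-size scaling rpn-6.1 had a log2 fold change of 2.73 and pbs-1 of 2.13.

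**Figure D4:**
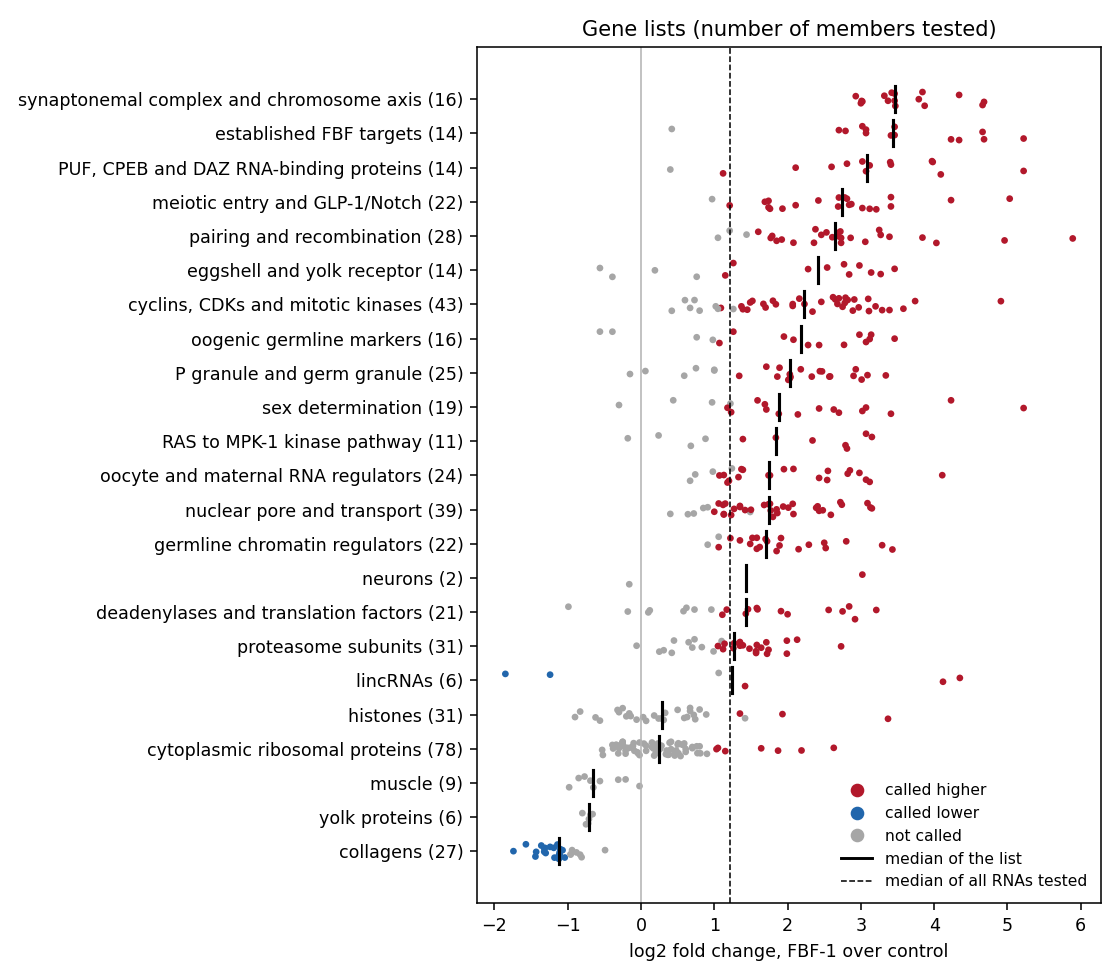
Log2 fold change of every tested member of each gene list, coloured by call, with the median of the list as a black bar and the median of all 5719 RNAs (1.21) as a dashed line. The synaptonemal complex and axis list has the highest median (3.46) of the lists plotted and the collagens the lowest (-1.12).

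Markers of other tissues were read as a check on the labels and on background. The oogenic germline list had 12 of 16 members higher with FBF-1 (median log2 fold change 2.18), and 8 higher and 2 lower with TMM. Its summed level was 7467 to 11773 RPM with FBF-1 and 3543 to 3947 in the controls. None of the 46 sperm markers or 35 major sperm protein genes among them reached the count minimum. The summed level of the sperm markers was 146 to 267 RPM with FBF-1 and 148 to 219 in the controls. Both sets of libraries thus held reads on oogenic germline markers, and counts on sperm markers were low in both. Multiply mapped reads were removed, which lowers counts on the major sperm protein family, so the sperm markers are a weak check.

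Somatic markers were mostly lower or not called, and more of them were called lower with TMM. The collagens, which epidermal cells secrete into the cuticle, had no member higher and 20 of 27 lower, with a median log2 fold change of -1.12, and all 27 were lower with TMM. Their summed level was 9387 to 10489 RPM with FBF-1 and 21792 to 23575 in the controls. col-159 had 0, 78.5 and 87.8 RPM with FBF-1 and 226, 278 and 331 in the controls, and its log2 fold change was -1.74 (SE 0.21, edgeR adjusted p = 2.9e-15). Against the spermatogenic controls col-159 was not called, with -0.43. None of the 6 yolk protein genes of the intestine passed the 2-fold limit, but every FBF-1 library lay below every control in all 6, and with TMM all 6 were lower. Their median log2 fold change was -0.71, as in vit-1 with -0.80, and their summed level was 7307 to 11133 RPM with FBF-1 and 15554 to 16418 in the controls. None of 9 muscle genes was called, with a median of -0.65, but all 9 were lower with TMM and 1 without FBF-1 replicate 1. The summed level of the list was 4361 to 4907 RPM against 7295 to 7427. The paramyosin gene unc-15 had -0.85, and -2.08 with TMM. Only 2 of 7 neuronal markers could be tested, and snb-1, the synaptobrevin gene, was higher with 3.02. For each summed level the exact two-sided permutation test gave p = 0.1, except for the sperm markers with p = 0.7. The part of these markers and of rRNA in the rise of the germline RNAs was not tested.

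RNAs that fell were few under library-size scaling. Of the 164, 82 were protein coding, 20 of them collagens, and 50 were rRNA, tRNA or mitochondrial RNA. Of 124 tRNA genes tested 43 were lower and 1 was higher, and of 26 small nuclear RNA genes 9 were lower and 1 higher. With TMM 112 tRNA genes (90.3%) and 21 small nuclear RNA genes (80.8%) were lower, against a background of 21.3%. grd-5, a groundhog gene of the hedgehog-related families, showed the largest fall among RNAs that were no rRNA, tRNA or mitochondrial RNA, with 267, 299 and 249 RPM with FBF-1 and 1344, 1695 and 1646 in the controls. Its log2 fold change was -2.53 (SE 0.17, edgeR adjusted p = 1.1e-49). srap-1 followed with 53.3, 238 and 263 RPM against 1118, 1501 and 1272, and a log2 fold change of -2.41. The other RNAs of this set were let-4 (-2.24), which encodes a leucine-rich repeat protein of the apical extracellular matrix, the snoRNA Y65B4A.10 (-2.23), the pseudogene Y105C5A.2 (-2.17), a further groundhog gene grd-10 (-2.16), the noncoding RNA C38C6.8 (-2.14), the snoRNA Y74C9A.6 (-2.07), F22F4.4 (-1.99) and K11H12.7 (-1.97). FBF-1 libraries lay below the controls in all 10, and all 10 were lower under TMM too. Against the spermatogenic controls the log2 fold changes of Y105C5A.2 and C38C6.8 turned positive, at 1.68 and 1.91, and Y65B4A.10 was not called, with -0.56.

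Long intergenic noncoding RNAs went in both directions. Of 151 such RNAs 6 could be tested, 3 were higher and 2 were lower. linc-7 had 373, 525 and 437 RPM with FBF-1 and 7.07, 31.7 and 21.6 in the controls, a log2 fold change of 4.35 (SE 0.30, edgeR adjusted p = 3.1e-44). linc-4 had 2 control counts and a ratio of summed reads of 18.4 (95% exact counting interval 5.01 to 153). linc-29 had a log2 fold change of 1.42 (edgeR adjusted p = 6.6e-04), and was not called with TMM (0.17), without control replicate 2 (edgeR adjusted p = 0.017) or with the replicate block (edgeR adjusted p = 0.011). linc-22 (-1.85) and linc-8 (-1.24) were lower. The call of linc-8 was lost without control replicate 2 (-0.87, edgeR adjusted p = 0.11) and in thinned libraries (-1.61, edgeR adjusted p = 0.014).

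The X chromosome, which carries few genes that are highly expressed in germ cells, stood apart. Of 425 protein-coding RNAs tested from the X, 45 (10.6%) were higher with FBF-1, against 2626 of 4781 (54.9%) from the autosomes, where the share ran from 50.8% on chromosome V to 58.9% on chromosome I. The median log2 fold change was -0.05 on the X and 1.39 on the autosomes. Under TMM the shares were 0.941% and 16.2%. Without FBF-1 replicate 1, 48 RNAs of the X and 2698 of the autosomes were higher. Among the RNAs of the X that TMM also called were linc-7, meg-1, the ABC transporter gene mrp-4 (log2 fold change 2.50), R160.11 (3.17) and T09B9.1 (3.13). Share by chromosome is a description, since genes are not replicates.

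**Figure D5:**
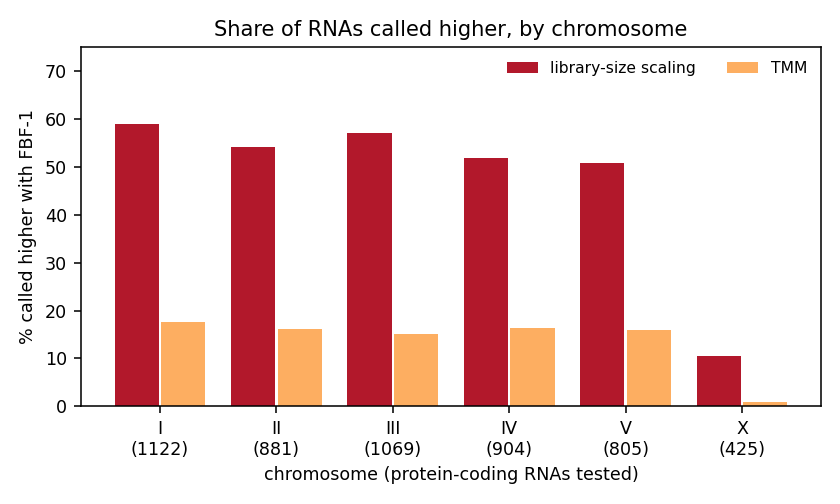
Percent of tested protein-coding RNAs called higher with FBF-1 on each chromosome, with library-size scaling in red and TMM in orange, and the number tested under each chromosome. The X has 10.6% and 0.941%, and the autosomes have 50.8% or more with library-size scaling.

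FBF-1 was compared with FBF-2 in the same germline gender to see where the RNAs of FBF-1 differ from those of its near twin. The FBF-1 libraries are those of the comparison with the controls, so the calls share libraries. In the FBF-2 libraries rRNA took 29.4%, 34.4% and 31.9% of the counts and protein-coding RNA 59.6%, 54.2% and 57.1%. These shares lay between those of FBF-1 replicates 2 and 3 and those of the controls. Their part in the differences below was not tested. Between the proteins, with TMM scaling, 181 of the 5719 RNAs (3.16%) were higher and 212 (3.71%) were lower with FBF-1. With library-size scaling 1003 were higher and 55 lower. Of the 212 lower with TMM, 86 were also called lower with FBF-1 than in the controls, and 33 were called higher than the controls. sygl-1 had 62.6, 48.3 and 68 RPM with FBF-2, a log2 difference of 1.35 (SE 0.21, edgeR adjusted p = 5.2e-09). FBF-1 replicate 1, with 53.3 RPM from 1 count, lay within the FBF-2 libraries, while replicates 2 and 3 lay above them. lab-1 (1.74), meg-1 (1.54), egg-3 (1.26), puf-6 (1.18), gyg-2 (1.16) and oma-1 (1.12) were also higher with FBF-1. linc-7 was higher by 1.40.

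Several RNAs that were high over the controls with FBF-1 were higher still with FBF-2. syp-1 had 527, 496 and 510 RPM with FBF-2, against 53.3, 229 and 247 with FBF-1, a log2 difference of -1.68 (SE 0.17, edgeR adjusted p = 2.8e-19). cpb-3 had 2373, 2318 and 2214 RPM with FBF-2, a difference of -1.64, and wago-4 had 3367, 2880 and 3212, a difference of -1.48. For gld-1, with 10304, 8863 and 9021 RPM with FBF-2, the difference was -1.02. For fbf-2 it was -1.12, and the FBF-2 strain carries fbf-2 as a tagged transgene. ifet-1 (-1.04) and car-1 (-1.03) stood at the same size. With library-size scaling these differences kept their sign, but gld-1, fbf-2, wago-4, ifet-1 and car-1 fell under 2-fold. By the rule for the largest differences, the RNAs named were Y43F11A.4, hlh-3 and T09B9.1 for FBF-1, each with 5 or fewer control counts. Y43F11A.4 had 85 counts with FBF-1 and 2 with FBF-2, a ratio of summed reads of 19.4 (95% exact counting interval 5.22 to 163). hlh-3 had 88 and 5 counts and a log2 difference of 2.45. T09B9.1 had 204 and 15 counts and a log2 difference of 2.09. For FBF-2 they were the noncoding RNAs Y65B4A.10 (-2.60), F57G8.t2 (-2.24) and K07A1.t1 (-2.05), all 3 of which were also lower with FBF-1 than in the controls.

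The enrichment of FBF-1 over control was compared between germline genders through the interaction of antibody and gender. Spermatogenic FBF-1 libraries were sequenced in lane 1 and their controls in lane 3, against lanes 2 and 1 for the oogenic sets. Lane and the interaction therefore cannot be told apart, nor can lane and gender where the spermatogenic controls replaced the oogenic ones. On the same 5719 RNAs, 2292 (40.1%) were higher with FBF-1 than in the control in spermatogenic germlines, against controls of their own. The 1928 RNAs higher in both genders were 69.6% of the oogenic and 84.1% of the spermatogenic list. The count minimum was set on the oogenic FBF-1 libraries, so RNAs found mainly in spermatogenic germlines were left out. The 84.1% is therefore no share of all RNAs higher with FBF-1 in spermatogenic germlines. The interaction called 176 RNAs (3.08%) as more and 131 (2.29%) as less enriched in oogenic germlines. Of the 131, 64 were rRNA or tRNA genes. A count of 0 in all 3 spermatogenic controls was found for 49 of the 131, and 28 of these 49 were rRNA or tRNA genes. The largest by the rule, rrn-1.1, C16D9.t2 and W02H3.t1, had a count of 0 in all 3 spermatogenic controls and were lower with FBF-1 than in the oogenic controls, so no fold is given for them. As classes, rRNA and tRNA still took 24.6% to 28.3% and 4.83% to 7.75% of the spermatogenic controls. Why these genes had no count there was not tested. F08F3.6 and fbxc-50, at the other end, had 0 and 3 counts in the spermatogenic FBF-1 libraries, and cln-3.2 had 0 in the oogenic controls.

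Of the 2956 tested RNAs with at least 10 counts in each of the 4 sets, 155 were more and 43 were less enriched in oogenic germlines. Of those called over control in oogenic germlines, higher or lower, these were 33 and 20. rab-14, cbd-1, unc-116 and C34C12.4 were picked among the higher ones after the values were seen. The log2 interaction of plk-3 was 1.41 (SE 0.38, edgeR adjusted p = 0.0047). That of rab-14, a small GTPase gene, was 3.91 (SE 0.71, edgeR adjusted p = 1.3e-06), on 10 counts in the oogenic and 16 in the spermatogenic controls. The eggshell gene cbd-1 was less enriched in oogenic germlines, with a log2 interaction of -1.98 (SE 0.33, edgeR adjusted p = 1.1e-07). Its RPM was 1377 with FBF-1 and 612 in the control in oogenic germlines, and 668 and 71.3 in spermatogenic germlines. Its level thus differed between genders in the controls as well as in the FBF-1 libraries. The interaction was -1.96 for unc-116, the kinesin heavy chain gene, and -1.80 for C34C12.4.

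Several RNAs named here cannot be assigned with certainty. Reads that mapped to more than one place were removed, which affects near-identical pairs such as fbf-1 and fbf-2, htp-1 and htp-2, egg-1 and egg-2, egg-4 and egg-5, oma-1 and oma-2, puf-3 and puf-11, and puf-6 and puf-7. The removal also affects the collagen, yolk, histone, major sperm protein and tRNA families. The strand setting of the counting is not given in the sources used here. Exons of fbf-1, him-3, lip-1, syp-3, wdr-5.3, prom-1, sip-1, puf-6, prg-1, gld-2, pie-1, egg-3, perm-2, xnd-1, npp-16, mcm-2, cdk-2, lab-1, linc-8, linc-22, F32B6.3, Y69A2AR.32, mrp-4, T09B9.1, F57G8.t2, K07A1.t1, rrn-1.1 and C16D9.t2 overlap those of a gene on the opposite strand. Those of cdk-2, linc-22, syp-1, dsb-1, zim-2, ife-1, larp-1, col-159 and Y65B4A.10 overlap a gene on their own strand.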

How the data were processed

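The authors deposited counts of reads per gene for 18 libraries. According to the study's methods and the submitters' notes, barcode duplicates were collapsed, reads were aligned (STAR and Novoalign are named, without versions), multiply mapped reads and reads with a low alignment score were removed, and genes were counted with HTSeq. The genome build, annotation and strand setting are not given in the sources used here. The deposited counts were used without change, after 2 entries that name no gene were left out, reads on no feature (9.54% to 15.4% of a library here) and ambiguous reads (0.568% to 0.931%). Names and positions came from Ensembl release 115 (WBcel235), which matched 25738 of 26709 genes.

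RPM is the count scaled to a library of 1000000 counts on genes. RNAs averaging 20 counts or more over the FBF-1 libraries were tested with edgeR 4.0.16 (quasi-likelihood test, robust, R 4.3.3, library-size scaling) on the 6 libraries, and called where the adjusted p (Benjamini-Hochberg) was below 0.01 and the log2 fold change exceeded 1 in either direction. FBF-1 against FBF-2 used TMM factors. The interaction with gender used library-size scaling. Each SE was back-calculated as the absolute log2 fold change divided by the square root of the F statistic of edgeR's test. DESeq2 1.42.0 was an alternative, and single values were tested with scipy 1.17.1. The edgeR fits of FBF-1 over control, FBF-1 against FBF-2 and the interaction were run on simulated data. DESeq2 and the other alternatives were not. The simulated rises and falls were equal in number, unlike those over control here.

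The FBF-1 libraries held 18749 to 1833483 counts and the controls 139129 to 283777, so that 1 count was worth 53.3 RPM in the shallowest. Intervals cover counting error only. Replicate libraries differed by more than sampling noise. Named RNAs were the established targets, the 10 largest rises and falls that met the stated minimums, the 5 most abundant RNAs with no control count, the 10 most abundant RNAs called, the extremes of each of 25 gene lists and the 3 largest differences each way from FBF-2 and between genders. Not all extremes of the lists are described. Members and lists were chosen with earlier results of these data known. Alternatives were other scalings, filters, thresholds and controls, thinning, a replicate block and leaving out each library.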

Additional observations from a re-analysis of the deposited data

Results flagged for a closer look

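RNAs described above differed between FBF-1 and FBF-2 beyond the threshold of edgeR's quasi-likelihood test with TMM. Higher with FBF-1, on the log2 scale, were lab-1 (1.74), meg-1 (1.54), linc-7 (1.40), sygl-1 (1.35), egg-3 (1.26), puf-6 (1.18), gyg-2 (1.16) and oma-1 (1.12). Lower with FBF-1, among RNAs that were higher than in the control, were syp-1 (-1.68), cpb-3 (-1.64), wago-4 (-1.48), fbf-2 (-1.12), ifet-1 (-1.04), car-1 (-1.03) and gld-1 (-1.02). Lower with FBF-1, among RNAs that were lower than in the control, were Y65B4A.10 (-2.60), grd-5 (-1.95), F22F4.4 (-1.88), C38C6.8 (-1.74), srap-1 and grd-10 (-1.61 each), Y74C9A.6 (-1.57), linc-22 (-1.52), Y105C5A.2 (-1.29), linc-8 (-1.09), let-4 (-1.07) and col-159 (-1.02). With library-size scaling, chosen after seeing the data, 10 of these RNAs fell under 2-fold, namely wago-4, fbf-2, ifet-1, car-1 and gld-1, and linc-22 (-0.97), Y105C5A.2 (-0.77), linc-8 (-0.54), let-4 (-0.53) and col-159 (-0.48).

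The enrichment over control differed between oogenic and spermatogenic germlines, by the interaction in edgeR's quasi-likelihood test, which cannot be told apart from lane. Positive values, more enriched in oogenic germlines, were found for ife-1 (1.65) and plk-3 (1.41). perm-4 also had a positive value (1.26), but was not called over control with FBF-1 in oogenic germlines (-0.39), and its interaction was 0.97 with TMM and without rRNA, tRNA and mitochondrial genes, under 2-fold. Negative values were found for C38C6.8 (-4.61), col-159 (-2.09), cbd-1 (-1.98), Y65B4A.10 (-1.95) and Y74C9A.6 (-1.31). The interaction was also called for wago-4, Y105C5A.2 and meg-1, but the smallest summed count among the 4 sets was 3, 4 and 4 for these, and no value is given.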

How the results depend on the processing

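The 2770 higher and 164 lower RNAs depended on the scaling and on the thresholds. TMM gave 810 higher and 1221 lower, DESeq2 with its own size factors 389 and 685, and leaving out rRNA, tRNA and mitochondrial genes 1336 and 705. DESeq2 with library-size scaling gave 1284 higher. A minimum mean of 100 counts gave 1337 and 71, and a log2 fold change over 2 gave 1519 and 12. Without a fold minimum 331 were lower, and against the spermatogenic controls 416. Leaving out 1 library gave 1813 to 2866 higher and 138 to 197 lower, the lowest without FBF-1 replicate 3. In alternatives chosen after seeing the data, leaving out FBF-1 replicate 1 gave 1207 and 1082 with TMM, and 1351 and 803 without rRNA, tRNA and mitochondrial genes. Of the established targets 13 were called under every alternative run except DESeq2 with its own size factors, which called 12 and lost gld-3. With the replicate number as a replicate block 2109 were higher and 142 lower. The deviations of same-numbered FBF-1 and control libraries from their set means correlated at 0.03, 0.04 and -0.00. With FBF-1 replicate 1 so shallow, sampling noise enters these values, and they cannot decide whether the numbers pair the libraries.

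Between FBF-1 and FBF-2, 393 RNAs were called with TMM, 1058 with library-size scaling (chosen after seeing the data), 119 with DESeq2 and 310 with the replicate block. TMM, planned as an alternative there, was already the scaling used. The interaction called 307, and 186 without rRNA, tRNA and mitochondrial genes, 164 with DESeq2 and 295 with the block.

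Log2 fold changes that changed sign were those of egl-4, mcm-2 and puf-9, with -0.82, -0.83 and -0.85 under TMM, -0.77, -0.85 and -0.84 under DESeq2, and -0.39, -0.40 and -0.42 without rRNA, tRNA and mitochondrial genes. Without FBF-1 replicate 1 they were -0.47, -0.50 and -0.54 with TMM, and -0.38, -0.39 and -0.41 without those genes. atx-2 had -0.27 under TMM and -0.28 under DESeq2. Against the spermatogenic controls Y105C5A.2 had 1.68 and C38C6.8 1.91, while mcm-2 kept its sign there and was called higher, with 2.03. Of 100 RNAs named, DESeq2 with its own size factors lost the calls of 19, among them syp-1 (DESeq2 adjusted p = 0.031), lab-1 (0.054), drh-3 (0.029), ife-1 (0.043), hpl-2 (0.011), xnd-1 (0.085) and npp-20 (0.059), and gave no adjusted p for 4. TMM lost 9, and DESeq2 with library-size scaling 3, npp-4 (2.58, DESeq2 adjusted p = 0.13), linc-29 (0.059) and linc-8 (0.095). Leaving out control replicate 2 lost 2 of them, linc-29 and linc-8. The spermatogenic controls lost 3, Y65B4A.10, col-159 and ife-1. The cause of these changes was not tested. Depth limits RNAs with few control counts, and 236 of the higher RNAs had 3 or fewer over the 3 controls.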
